A study of Mus musculus with 6 samples.

Results

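The amino acid response and ER stress genes are 38 genes of the response to amino acid shortage or to unfolded protein in the endoplasmic reticulum (ER). They include sensors and regulators as well as the targets that these raise. The 38 were chosen by symbol from the 54838 genes of a count table of mouse sciatic nerve, with earlier results of these data known. By the branch of the stress response to which they belong, 23 were placed in the ATF4 branch and 15 in the ATF6 and XBP1 branches. All 38 passed the low-count filter. A gene is said to be called, or to have risen or fallen, when its edgeR quasi-likelihood p, adjusted by Benjamini-Hochberg over all 18775 genes tested, lay under 0.05, and fold changes are CKO over WT.

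The libraries came from sciatic nerves of mice of strain C57 Bl at postnatal day 3. The CKO group had the genotype CnpCre Actl6afl/fl (n = 3 libraries), and the WT group was labelled WT (n = 3). Actl6a encodes an actin-related subunit of the BAF chromatin remodelling complex, and Cnp, which names the Cre driver, is active in Schwann cells and other myelinating glia. The labels do not say whether WT mice carried a floxed allele or the driver, nor whether a library came from 1 animal or a pool, so the p-values cover only library-to-library spread, which may be technical. Each library is whole nerve, in which fewer cells of a type and less RNA per cell cannot be told apart.

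In the integrated stress response, kinases such as PERK (Eif2ak3) and GCN2 (Eif2ak4) phosphorylate the initiation factor eIF2alpha, which slows general translation while the mRNA of the transcription factor ATF4 is translated more. ATF4, with C/EBP partners, raises genes of amino acid synthesis and further stress factors. ATF6 and the IRE1 product XBP1 instead raise chaperones and degradation factors of the ER, and ER stress in Schwann cells is best known from mutant myelin proteins that misfold. Counts of mRNA per gene do not measure the translation of ATF4, the cleavage of ATF6 or the splicing of Xbp1.

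Each branch is known for short DNA elements in its promoters. The core of the C/EBP-ATF composite element, which ATF4 binds, was searched as TGATGNAA. The ER stress element, which ATF6 binds with NF-Y, was searched as CCAAT and CCACG separated by any 9 bases. Both strands of RefSeq windows (GRCm38.p6, 250 bases before to 50 after a gene's start) were read, and 36 of the 38 members, all but Atf6 and Manf, had a window. TGATGNAA stood in 7 of 23 ATF4 branch members, namely Atf3, Trib3, Nupr1, Chac1, Vldlr, Asns and Pycr1. It stood in 1 of 13 members of the ATF6 and XBP1 branches (Herpud1) and in 4.51% of all 27025 genes with a window. The ER stress element stood in 0 of 23 ATF4 branch members and in 5 of 13 of the other branches (Hspa5, Hsp90b1, Dnajc3, Creld2 and Pdia6), against 0.137% of all genes. TGACGTGG, the core of the element that both ATF6 and XBP1 bind, stood in none of the members' windows and in 0.714% of all genes. Its last letters, CGTGG, are the other strand's reading of the CCACG in the ER stress element, so a match of 1 pattern can share letters with the other. A match describes the letters and is no evidence that a factor was bound.

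Printed here are the 250 bases before the start of the 4 members higher in CKO nerves whose windows held the composite core, since they are the called members that carry it. All run 5′ to 3′ along the gene, and capitals mark the match on either strand. Pycr1 is at chr11:120643749-120643998, minus strand, Asns at chr6:7693210-7693459, minus strand, Atf3 at chr1:191183334-191183583, minus strand and Vldlr at chr19:27216770-27217019, plus strand (GRCm38.p6).
Pycr1: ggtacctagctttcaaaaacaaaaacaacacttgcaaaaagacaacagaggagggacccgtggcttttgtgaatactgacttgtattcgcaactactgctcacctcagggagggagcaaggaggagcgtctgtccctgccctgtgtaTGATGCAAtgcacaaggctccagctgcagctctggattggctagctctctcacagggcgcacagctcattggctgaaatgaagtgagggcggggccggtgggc
Asns: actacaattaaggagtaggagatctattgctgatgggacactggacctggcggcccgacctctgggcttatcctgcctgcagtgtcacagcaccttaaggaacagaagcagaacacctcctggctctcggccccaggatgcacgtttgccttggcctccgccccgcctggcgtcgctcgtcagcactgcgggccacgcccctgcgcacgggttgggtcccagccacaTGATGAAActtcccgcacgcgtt
Atf3: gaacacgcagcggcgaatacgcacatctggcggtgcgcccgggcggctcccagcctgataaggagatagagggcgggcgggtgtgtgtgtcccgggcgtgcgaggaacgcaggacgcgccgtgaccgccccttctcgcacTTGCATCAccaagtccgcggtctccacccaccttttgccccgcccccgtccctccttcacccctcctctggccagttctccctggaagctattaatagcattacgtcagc
Vldlr: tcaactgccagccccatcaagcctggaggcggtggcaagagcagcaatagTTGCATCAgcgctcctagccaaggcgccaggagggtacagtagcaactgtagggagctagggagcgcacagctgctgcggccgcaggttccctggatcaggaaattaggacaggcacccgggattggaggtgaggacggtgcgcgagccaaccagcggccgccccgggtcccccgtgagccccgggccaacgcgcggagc

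The first base of the match lay at -103 in Pycr1, -23 in Asns, -110 in Atf3 and -200 in Vldlr, counted back from the last base before the RefSeq start. In Pycr1 and Asns it read along the gene's own strand, and in Atf3 and Vldlr as TTGCATCA, the other strand's reading. The Ensembl models that were counted can start before RefSeq's. In an exon of the gene lay 21 of the printed bases of Pycr1, 45 of Asns, 7 of Atf3 and 179 of Vldlr. For Hsp90b1 and Hspa5, printed below, these were 65 and 120. The match in Asns and that in Hspa5 lay within such exonic bases. For Atf3 and Vldlr the place of the exonic bases in the window was not determined. The second set holds the ER stress elements of the 2 chaperone genes Hsp90b1 and Hspa5, whose log2 fold changes had opposite signs. Hsp90b1 is at chr10:86705445-86705694, minus strand and Hspa5 at chr2:34771840-34772089, plus strand (GRCm38.p6).
Hsp90b1: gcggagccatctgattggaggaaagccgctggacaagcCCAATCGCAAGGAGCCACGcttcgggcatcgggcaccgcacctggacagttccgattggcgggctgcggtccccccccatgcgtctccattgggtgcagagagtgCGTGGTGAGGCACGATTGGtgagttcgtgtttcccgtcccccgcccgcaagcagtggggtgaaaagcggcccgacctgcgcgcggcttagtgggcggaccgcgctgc
Hspa5: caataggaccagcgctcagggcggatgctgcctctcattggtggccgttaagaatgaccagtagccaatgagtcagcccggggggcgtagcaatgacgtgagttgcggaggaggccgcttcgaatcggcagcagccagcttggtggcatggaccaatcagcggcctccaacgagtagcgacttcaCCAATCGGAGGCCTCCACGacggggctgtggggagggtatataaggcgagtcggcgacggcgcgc

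Hsp90b1 held the ER stress element at -212 and, on the other strand, at -107, and Hspa5 held it at -65. Both windows held the full pattern, while Hsp90b1 was called lower in CKO nerves and Hspa5 was not called.

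Library sizes ran from 31404107 to 32674317 counts in CKO and from 33084003 to 36760296 in WT nerves. Actl6a itself had 42.4, 47.6 and 41.5 CPM (counts scaled to library size, after TMM scaling) in CKO nerves, against 48.6, 53.3 and 46.2 CPM in WT nerves. Its log2 fold change was -0.17 (edgeR adjusted p = 0.243), so this count in whole nerve checks the genotype labels only weakly. Schwann lineage and myelin markers (12 of 12 tested, 10 lower and 0 higher) took 0.584 to 1.36% of counts in CKO and 5.74 to 6.14% in WT nerves. Skeletal muscle markers (15 of 15 tested, 0 called) took 0.601, 7.39 and 0.704% in CKO nerves, against 0.457 to 0.650% in WT nerves, so CKO replicate 2 stood apart. Erythroid markers (6 of 7 tested, 3 higher) took 0.721 to 2.29% in CKO and 0.270 to 0.395% in WT nerves. Macrophage markers (13 of 13 tested, 10 higher) took 0.111 to 0.191% in CKO and 0.0766 to 0.0888% in WT nerves. Fibroblast markers (10 of 10 tested, 4 higher) took 3.18 to 4.80% in CKO and 3.53 to 3.59% in WT nerves. Mast cell (5 of 7 higher), neuron (3 of 9 higher) and endothelial markers (1 of 10 higher) each took under 0.1% of counts in every library. No marker of these lists was at 0 in every library. The part of these shifts in the results below was not tested.

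Asns, the gene of asparagine synthetase, rose most, with factors such as Atf3 and Atf5 and the proline enzyme gene Pycr1, while the serine synthesis genes Psph and Phgdh and the feedback gene Ppp1r15a fell. Of the 38 members, 12 were called (31.6%), against 18.8% of all genes tested. They were 7 higher, where 8.55% of all genes were higher, and 5 lower, where 10.3% of all genes were lower. DESeq2 called 15 members, 9 higher and 6 lower, where it called 21.2% of all genes, 10.2% higher and 11.1% lower. The libraries of the genotypes did not overlap in 22 of 38 members, against 42.7% of all genes tested. The median log2 fold change was 0.08 over the members and 0.04 over all genes.

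In the ATF4 branch 7 of 23 members were higher, 3 lower and 13 not called, beside 8.55% and 10.3% of all genes. The median log2 fold change was 0.23. At an unadjusted edgeR p under 0.05, 10 were higher and 4 lower, and DESeq2 called 9 higher and 3 lower. In the ATF6 and XBP1 branches 0 of 15 were higher, 2 lower and 13 not called, with a median of -0.03. At the unadjusted threshold 2 of these were higher and 3 lower, and DESeq2 called 0 higher and 3 lower. The share of all genes under the unadjusted threshold was not computed. The medians differed by 0.26, and 14 of 23 and 7 of 15 log2 fold changes were above 0. By library, the median log2 deviation of the ATF4 branch from the WT mean was 0.30, 0.09 and 0.28 in CKO nerves and -0.04 to 0.03 in WT nerves. For the ATF6 and XBP1 branches it was -0.09, -0.02 and 0.05 in CKO nerves and -0.04 to 0.04 in WT nerves. The ATF4 branch median lay above all WT libraries in each CKO library, with replicate 2 lowest, and that of the other branches overlapped WT. By this measure the WT libraries are centered on their own mean and the CKO libraries are not. A CKO library can thus fall outside the narrow WT range more easily. Without 6 members known to answer to more than 1 branch (Ddit3, Herpud1, Xbp1, Atf3, Cebpb and Dnajc3) the medians were 0.16 and -0.04. These are descriptions, and the difference between the branches was not tested.

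**Figure D1:**
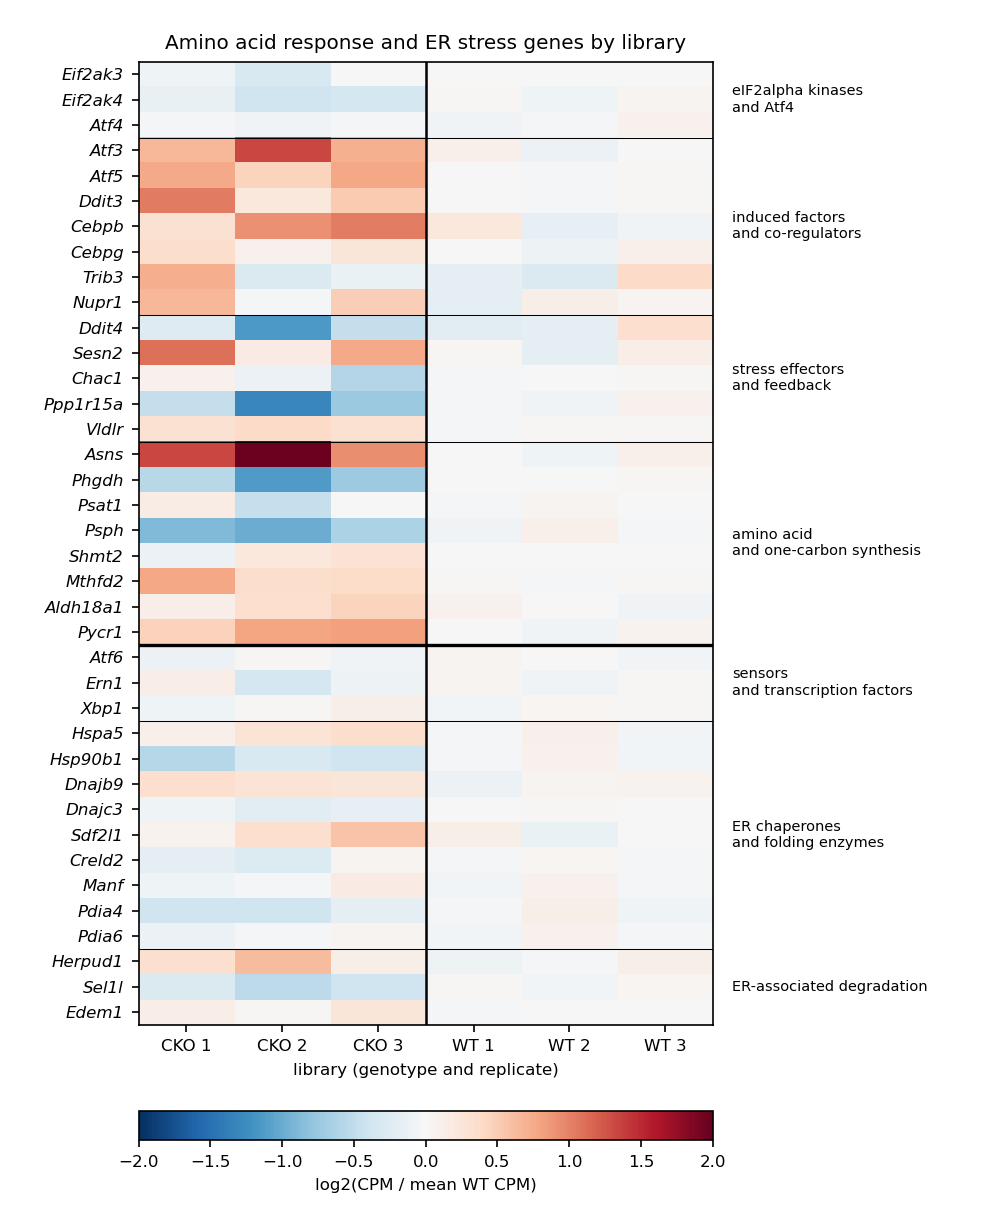
Heat map of the 38 members (rows, grouped by role) in the 6 libraries (columns, CKO left of WT); color gives log2 of CPM over the mean WT CPM, red above and blue below. In CKO columns red gathers in the induced factors and in Sesn2, Asns, Mthfd2 and Pycr1, though Trib3 and Nupr1 are not red in every CKO column. Blue gathers in Ddit4, Ppp1r15a, Phgdh and Psph. The heavy line parts the ATF4 branch (above) from the ATF6 and XBP1 branches.

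The heat map also shows the spread within CKO nerves. Atf5, Ddit3, Cebpg and Nupr1 were lowest in CKO replicate 2 among the CKO libraries, the one with 7.39% muscle counts, while Asns and Atf3 were highest there.

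Of the kinases and Atf4, 0 of 3 were called by edgeR or DESeq2, beside 18.8% and 21.2% of all genes. The median log2 fold change of the 3 was -0.12, and 1 had an unadjusted edgeR p under 0.05 (share of all genes not computed). Eif2ak3, the PERK kinase of the ER membrane, had 50.7, 43.8 and 54.0 CPM in CKO nerves, against 54.0, 54.1 and 53.9 CPM in WT nerves (log2 fold change -0.12, edgeR adjusted p = 0.388, and -0.05 without CKO replicate 2). A Gm43292 transcript on the opposite strand overlaps 8.05% of its exonic bases. Eif2ak4, the GCN2 kinase that senses uncharged tRNA, had 24.7, 20.8 and 21.5 CPM in CKO nerves, against 28.1, 25.9 and 28.4 CPM in WT nerves. The groups did not overlap, with CKO lower, but the change was not called (log2 fold change -0.30, 95% interval -0.54 to -0.05, edgeR adjusted p = 0.0888). Atf4 had 219, 212 and 218 CPM in CKO nerves, against 212, 220.1 and 236 CPM in WT nerves. The groups overlapped, and the interval of its log2 fold change ran from -0.25 to 0.16 around -0.04 (edgeR adjusted p = 0.740). Atf4 mRNA was thus not called, and its interval held no change beyond these bounds.

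Of the 7 induced transcription factors and co-regulators, 3 were higher, 0 lower and 4 not called, beside 8.55% and 10.3% of all genes. The median log2 fold change of the 7 was 0.64. All 7 values were above 0, though that of Trib3 was -0.21 without CKO replicate 1. Atf3 (chromosome 1, 191170296 to 191218039, GRCm38), an early stress-induced repressor of the ATF family, had 17.7, 28.0 and 18.1 CPM in CKO nerves, against 11.9, 10.2 and 11.2 CPM in WT nerves. Every CKO library lay above every WT library, replicate 2 highest. The gene was 1.91-fold higher (21.3 ± 5.83 against 11.1 ± 0.859 CPM, SD, n = 3 each; log2 fold change 0.93, 95% interval 0.47 to 1.40, edgeR adjusted p = 0.0196).

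Atf5 (chromosome 7, 44812256 to 44816658), which is translated under the same upstream open reading frame control as ATF4 and acts in the mitochondrial stress response, had 114.5, 91.9 and 115.5 CPM in CKO nerves, against 67.8, 66.1 and 68.7 CPM in WT nerves. CKO replicate 2 was the lowest of CKO and still above all WT libraries. It was 1.59-fold higher (107.3 ± 13.4 against 67.5 ± 1.31 CPM, SD, n = 3 each; log2 fold change 0.67, 95% interval 0.42 to 0.92, edgeR adjusted p = 0.00776). Cebpb (chromosome 2, 167688915 to 167690418), a C/EBP factor of stress and inflammation, had 10.2, 15.5 and 16.8 CPM in CKO nerves, against 9.54, 7.38 and 7.83 CPM in WT nerves. The lowest CKO library stood just above the highest WT library. Its log2 fold change was 0.78 (95% interval 0.28 to 1.28, edgeR adjusted p = 0.0437), and Tmem189 on the opposite strand overlaps 20.7% of its exonic bases, whose reads cannot be told apart. Macrophage markers, at 0.111 to 0.191% of counts in CKO against 0.0766 to 0.0888% in WT nerves, were higher in the same libraries, and their part in these 3 changes was not tested.

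Among the 4 that were not called, Ddit3, the CHOP factor of prolonged ER stress, had 27.2, 15.3 and 19.0 CPM in CKO nerves, against 13.3, 12.9 and 13.4 CPM in WT nerves. All CKO libraries were above WT, but the CKO values differed widely among themselves (log2 fold change 0.64, edgeR adjusted p = 0.0752). Of the 2 entries named Ddit3, the one with more counts was used. The other entry, with Mars and Gm4189 on the opposite strand, overlaps 10.9% of its exonic bases. Nupr1, a small chromatin-associated stress protein gene, had 70.0, 43.6 and 62.6 CPM in CKO nerves, against 39.2, 47.8 and 45.9 CPM in WT nerves, so CKO replicate 2 lay among the WT libraries. Its log2 fold change was 0.41 (edgeR adjusted p = 0.164). The log2 fold change of Cebpg, a dimer partner of ATF4, was 0.23 (edgeR adjusted p = 0.179). Trib3, a pseudokinase that feeds back on ATF4, was low, at 2.76, 1.36 and 1.51 CPM in CKO nerves, against 1.47, 1.35 and 2.16 CPM in WT nerves. Without CKO replicate 2, Ddit3 (log2 fold change 0.81), Nupr1 (0.58) and Cebpg (0.30) were called higher (edgeR adjusted p = 0.000672, 0.000446 and 0.0251). Without CKO replicate 1 they were 0.38, 0.26 and 0.16, and 0 of the 3 was called (edgeR adjusted p = 0.106, 0.331 and 0.340).

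**Figure D2:**
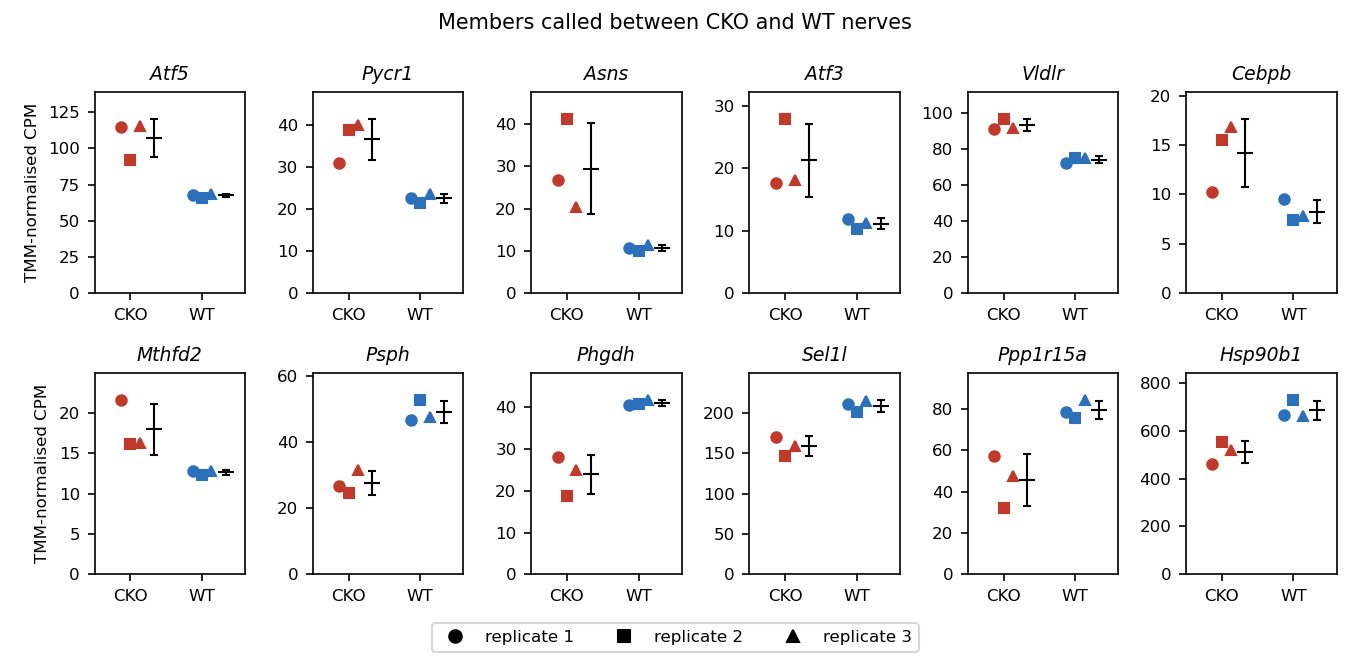
TMM-normalised CPM (vertical axis, from 0) of the 12 called members in CKO (left, red) and WT (right, blue) nerves; marker shapes give the replicate number, and bars the mean and SD of 3 libraries. No panel has a CKO library inside the WT range, and the SD of WT is the smaller in every panel.

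Among 5 stress effectors and feedback genes, 1 was higher, 1 lower and 3 not called, beside 8.55% and 10.3% of all genes. Vldlr (chromosome 19, 27216484 to 27254231), the very low density lipoprotein receptor and a target of ATF4, had 91.3, 96.9 and 91.6 CPM in CKO nerves, against 72.1, 75.2 and 75.1 CPM in WT nerves. The step was small and even across libraries: 1.26-fold, log2 fold change 0.33 (95% interval 0.16 to 0.50, edgeR adjusted p = 0.0230). Ppp1r15a (GADD34, chromosome 7, 45522916 to 45526268), the phosphatase subunit that reverses eIF2alpha phosphorylation, had 57.2, 32.2 and 47.4 CPM in CKO nerves, against 78.4, 75.9 and 84.5 CPM in WT nerves. It was lower in each CKO library than in each WT library, most so in replicate 2. The gene was 1.75-fold lower (45.6 ± 12.6 against 79.6 ± 4.44 CPM, SD, n = 3 each; log2 fold change -0.80, 95% interval -1.28 to -0.33, edgeR adjusted p = 0.0356).

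Sesn2, sestrin 2, an inhibitor of mTORC1 under leucine shortage, had 11.1, 5.81 and 8.74 CPM in CKO nerves, against 5.32, 4.52 and 5.64 CPM in WT nerves. CKO was above WT in every library, by little in replicate 2, and no call was made (log2 fold change 0.73, edgeR adjusted p = 0.0820); without that library it was 0.94 and called (edgeR adjusted p = 0.000376), and without CKO replicate 1 it was 0.50 and not called (edgeR adjusted p = 0.166). Ddit4 (REDD1), another mTORC1 inhibitor, had 25.8, 14.0 and 22.4 CPM in CKO nerves, against 26.8, 26.9 and 39.2 CPM in WT nerves. All CKO libraries lay under WT, without a call (log2 fold change -0.58, edgeR adjusted p = 0.170); the value was -0.36 without CKO replicate 2 and -0.38 without WT replicate 3. Chac1, which degrades glutathione, was the least abundant member, at 0.638 ± 0.135 TPM in CKO and 0.795 ± 0.0101 TPM in WT nerves (a level per transcript length, scaled within a library; SD, n = 3 each). At 0.286 to 0.456 CPM in CKO and 0.421 to 0.438 CPM in WT nerves, its interval (-0.89 to 0.51 on the log2 scale) was too wide to detect a change of either direction.

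The 8 genes of amino acid and one-carbon synthesis split (median log2 fold change 0.23). Of them 3 were higher, 2 lower and 3 not called, beside 8.55% and 10.3% of all genes. Asns (chromosome 6, 7675169 to 7693254), which makes asparagine, had 26.7, 41.3 and 20.4 CPM in CKO nerves, against 10.6, 9.97 and 11.4 CPM in WT nerves. All CKO libraries were well above WT, and replicate 2 was the highest. It was 2.77-fold higher (29.5 ± 10.7 against 10.6 ± 0.694 CPM, SD, n = 3 each; log2 fold change 1.47, 95% interval 0.86 to 2.08, edgeR adjusted p = 0.0112), the largest positive change among the members. Without CKO replicate 2 its log2 fold change was 1.14 (edgeR adjusted p = 1.33e-05).

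Pycr1 (chromosome 11, 120635712 to 120643769), the last step of mitochondrial proline synthesis, had 30.8, 38.8 and 39.9 CPM in CKO nerves, against 22.5, 21.5 and 23.5 CPM in WT nerves. It was 1.62-fold higher with no overlap (log2 fold change 0.70, 95% interval 0.41 to 0.98, edgeR adjusted p = 0.0102). Aldh18a1, the enzyme before it in the same path, had 44.7, 51.6 and 56.1 CPM in CKO nerves, against 43.3, 40.8 and 38.86 CPM in WT nerves. It too was above WT in every CKO library, yet was not called (log2 fold change 0.31, edgeR adjusted p = 0.0876), and was called higher without CKO replicate 2 (0.30, edgeR adjusted p = 0.0338) or 1 (0.39, edgeR adjusted p = 0.0424). Mthfd2 (chromosome 6, 83305691 to 83325908), a mitochondrial folate enzyme, had 21.6, 16.1 and 16.2 CPM in CKO nerves, against 12.8, 12.2 and 12.8 CPM in WT nerves. CKO replicate 1 was the highest and all were above WT (log2 fold change 0.51, 95% interval 0.18 to 0.85, edgeR adjusted p = 0.0469). For Shmt2, the mitochondrial serine hydroxymethyltransferase, it was 0.14 (edgeR adjusted p = 0.421), with 0.25 without CKO replicate 1 and 0.06 without CKO replicate 3.

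Of the 3 steps of serine synthesis from glycolysis, the first and last fell and the middle one was not called. Phgdh (chromosome 3, 98313170 to 98339990), the first step, had 28.0, 18.8 and 25.0 CPM in CKO nerves, against 40.7, 40.8 and 41.9 CPM in WT nerves. It was 1.72-fold lower (log2 fold change -0.78, 95% interval -1.13 to -0.43, edgeR adjusted p = 0.0144). Of its 50-base transcript words 47.8% also occur in transcripts of other genes, with Gm7901 and Gm9347 sharing the most. Reads may thus be lost or split between these genes. Psat1, the second step, had 306, 200.3 and 278 CPM in CKO nerves, against 267, 285 and 273 CPM in WT nerves. The groups overlapped and CKO replicate 2 was lowest (log2 fold change -0.07, edgeR adjusted p = 0.770), and without it the value was 0.09. Psph (chromosome 5, 129765558 to 129787449), the last step, had 26.5, 24.7 and 31.5 CPM in CKO nerves, against 46.5, 52.8 and 47.6 CPM in WT nerves. All CKO libraries were under WT, and the gene was 1.78-fold lower (27.6 ± 3.55 against 49.0 ± 3.35 CPM, SD, n = 3 each; log2 fold change -0.83, 95% interval -1.10 to -0.55, edgeR adjusted p = 0.00512). Cct6a on the opposite strand overlaps 10.4% of its exonic bases. Psph was the member with the smallest adjusted p, and the 1 whose call held whichever library was left out. Schwann lineage and myelin markers were lower in the same 3 libraries, at 0.584 to 1.36% of counts in CKO against 5.74 to 6.14% in WT nerves, and their part in these changes was not tested.

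**Figure D3:**
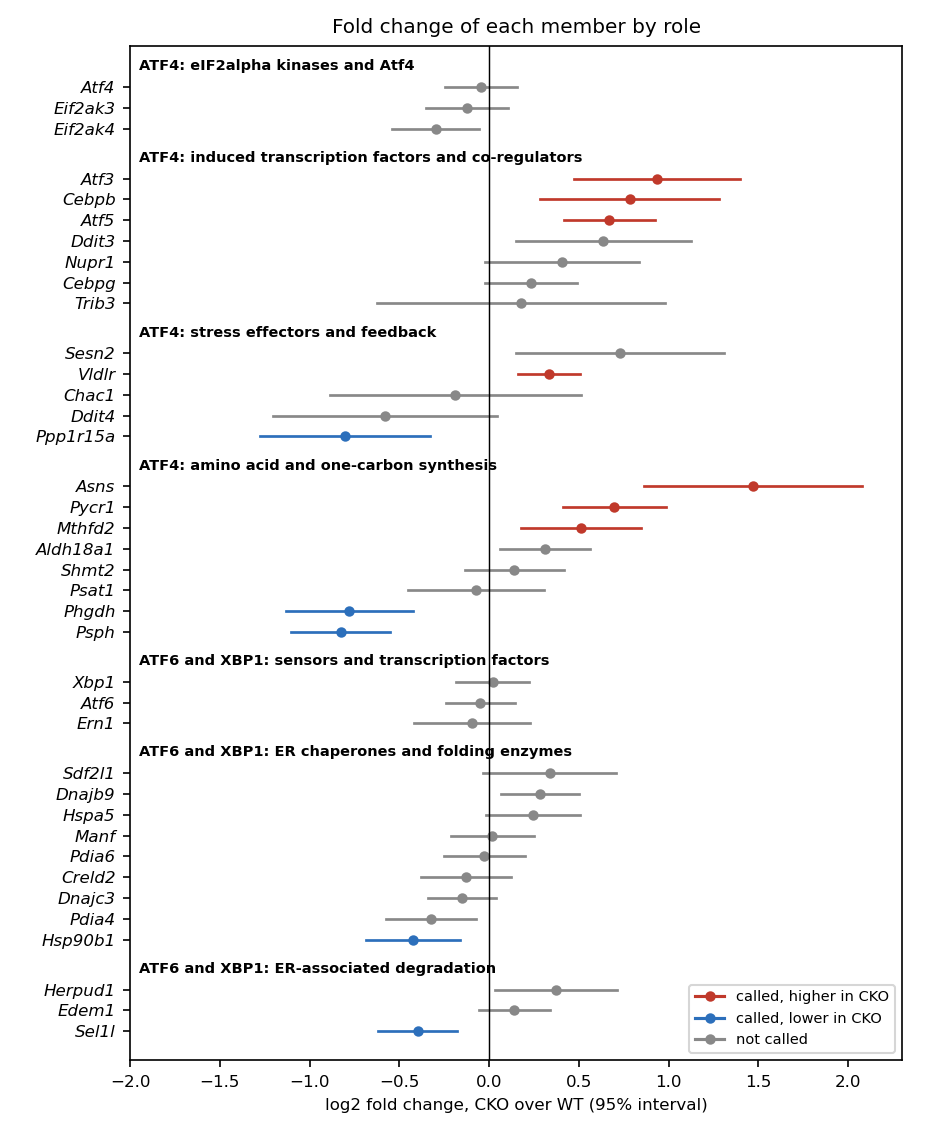
Log2 fold change, CKO over WT (horizontal axis), of each member with its 95% interval, grouped by role from the ATF4 branch (top) to the ATF6 and XBP1 branches (bottom); red and blue mark members called higher or lower in CKO. All 7 induced factors lie right of 0, the synthesis genes spread from -0.83 (Psph) to 1.47 (Asns), and 13 of 15 members of the lower branches are grey.

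The plot of fold changes by role sets the ATF4 branch beside the ER branches on 1 scale. Of the 3 sensors and transcription factors of those branches, 0 were called by edgeR or DESeq2, beside 18.8% and 21.2% of all genes. Of the same 3, 0 had an unadjusted edgeR p under 0.05 (share of all genes not computed). Atf6, the membrane-bound factor cleaved in the Golgi, had 45.8, 50.6 and 47.3 CPM in CKO nerves, against 51.7, 49.4 and 47.7 CPM in WT nerves (log2 fold change -0.05, edgeR adjusted p = 0.692). Ern1, the IRE1 sensor that splices Xbp1, had 25.7, 18.3 and 21.8 CPM in CKO nerves, against 24.4, 22.2 and 23.7 CPM in WT nerves (log2 fold change -0.10, edgeR adjusted p = 0.647), and without CKO replicate 2 its log2 fold change was 0.02. Xbp1 had 124, 134 and 142 CPM in CKO nerves, against 126, 135 and 133 CPM in WT nerves. The groups of all 3 genes overlapped, and the Xbp1 interval ran from -0.18 to 0.22 on the log2 scale (edgeR adjusted p = 0.888).

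Of 9 ER chaperones and folding enzymes (median log2 fold change -0.03), 0 were higher, 1 lower and 8 not called. Of all genes 8.55% were higher and 10.3% lower. Per length, Hspa5 (BiP, GRP78) was the most abundant member in CKO nerves, at 547 ± 88.6 TPM in CKO and 502 ± 26.9 TPM in WT nerves, and Hsp90b1 (GRP94) was at 351 ± 38.3 TPM in CKO and 515 ± 26.8 TPM in WT nerves (SD, n = 3 each). The WT levels of the 2 lay within 1 SD of each other. Hspa5, the main ER chaperone and sensor regulator, had 756, 844 and 892 CPM in CKO nerves, against 680.3, 749 and 675 CPM in WT nerves. CKO lay above WT in every library, by little in replicate 1 (log2 fold change 0.24, 95% interval -0.02 to 0.50, edgeR adjusted p = 0.167). Hsp90b1 (chromosome 10, 86690209 to 86705509), the ER form of HSP90, had 462, 554 and 518 CPM in CKO nerves, against 666, 731 and 661 CPM in WT nerves. It was lower in every CKO library, 1.34-fold (511 ± 46.4 against 686 ± 38.7 CPM, SD, n = 3 each; log2 fold change -0.42, 95% interval -0.69 to -0.16, edgeR adjusted p = 0.0394). Other genes, among them 1810014B01Rik on the opposite strand, overlap 15.7% of its exonic bases.

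Pdia4, a protein disulfide isomerase, had 187, 187 and 217 CPM in CKO nerves, against 240.0, 267 and 233 CPM in WT nerves. It lay under WT in every CKO library without a call (log2 fold change -0.33, edgeR adjusted p = 0.0750), and was called lower without CKO replicate 2 (-0.29, edgeR adjusted p = 0.0241). Dnajb9 (ERdj4), a BiP co-chaperone and XBP1 target, had 33.7, 32.5 and 31.5 CPM in CKO nerves, against 24.6, 27.7 and 28.0 CPM in WT nerves. It lay above WT in every CKO library, also without a call (log2 fold change 0.28, edgeR adjusted p = 0.0742), and was called higher without CKO replicate 2 (edgeR adjusted p = 0.0292). The co-chaperone gene Dnajc3, whose groups did not overlap, had a log2 fold change of -0.15. Sdf2l1 had 0.34, Creld2 -0.13, Manf 0.02 and Pdia6 -0.03, each with overlapping groups. The edgeR adjusted p of these 5 ran from 0.179 to 0.921.

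Among the 3 genes of ER-associated degradation 1 was lower and 2 not called, where 10.3% of all genes were lower. Sel1l (chromosome 12, 91806043 to 91849157), the adaptor of the HRD1 ubiquitin ligase, had 171, 146 and 159 CPM in CKO nerves, against 212, 201 and 215 CPM in WT nerves. Each CKO library lay under each WT library. The gene was 1.32-fold lower (log2 fold change -0.40, 95% interval -0.62 to -0.18, edgeR adjusted p = 0.0280). Herpud1, a membrane component of the same complex, had 49.3, 61.4 and 42.9 CPM in CKO nerves, against 36.9, 38.8 and 42.9 CPM in WT nerves (log2 fold change 0.37, edgeR adjusted p = 0.117). The highest value was in CKO replicate 2, and without it the log2 fold change was 0.22 (edgeR adjusted p = 0.0876). Edem1, a mannosidase-like degradation factor, was not called (0.14, edgeR adjusted p = 0.276).

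Without CKO replicate 2 all 12 calls held in the same direction and 7 more members were called, 13 higher and 6 lower in all. The share called was then 50% of members, against 35.4% of all genes; 17.8% of all genes were higher and 17.6% lower. Beside those shares, the ATF4 branch then had 12 higher and 3 lower (median log2 fold change 0.30) and the ATF6 and XBP1 branches 1 higher and 3 lower (median 0.02). Fewer calls held when any other library was left out. Of the 12 calls, 10 held without CKO replicate 1, 6 without CKO replicate 3, and 2, 1 and 2 without WT replicates 1, 2 and 3. Psph held in all 6 such fits, Atf5 in 5, and Asns, Atf3, Pycr1 and Phgdh in 3 each, those that left out a CKO library. Cebpb, Ppp1r15a, Vldlr and Sel1l held in 2, and Mthfd2 and Hsp90b1 in 1. The log2 fold change of Psph ran from -0.94 to -0.76 over these fits (highest edgeR adjusted p 0.0328), that of Asns from 1.14 to 1.68 (0.0622, without WT replicate 1) and that of Atf5 from 0.61 to 0.77 (0.0570, without WT replicate 2). The highest adjusted p was 0.0608 for Pycr1, 0.0660 for Phgdh, 0.0884 for Atf3, 0.106 for Vldlr, 0.121 for Sel1l, 0.123 for Ppp1r15a, 0.144 for Hsp90b1, 0.160 for Cebpb and 0.176 for Mthfd2, each without WT replicate 2 or 3. No called member changed direction in any of them.

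**Figure D4:**
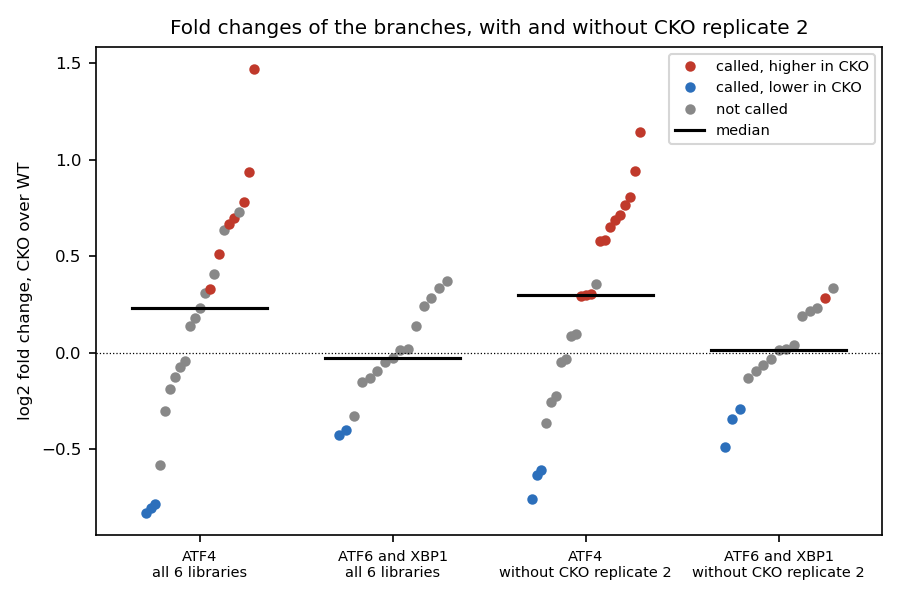
Log2 fold change, CKO over WT (vertical axis), of each member of the ATF4 branch and of the ATF6 and XBP1 branches, fitted on all 6 libraries (left) and without CKO replicate 2 (right); lines are medians and colored points are called members. The medians are 0.23 and -0.03 with all libraries and 0.30 and 0.02 without CKO replicate 2, where more points are colored.

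Of the 20 cytosolic aminoacyl-tRNA synthetase genes, many of them ATF4 targets, 0 were called by edgeR or DESeq2. These tools called 18.8% and 21.2% of all genes. The list's median log2 fold change was 0.03, and 2 of the 20 had an unadjusted edgeR p under 0.05. The share of all genes at that unadjusted threshold was not computed, so whether 2 of 20 is few or many cannot be said. The smallest p values were those of Gars (log2 fold change 0.20), Yars (0.24) and Qars (-0.26), with edgeR adjusted p of 0.113, 0.143 and 0.267. The median log2 deviation from the WT mean was -0.13, 0.21 and -0.04 in CKO nerves, so it was above 0 in CKO replicate 2 only. With all libraries 12 of 20 log2 fold changes were above 0. Without CKO replicate 2 that was 5 of 20, the median was -0.08, Gars was called higher, Yars (0.15) was not called and Qars (-0.45) was called lower. In all 4 of 20 (20%) were then called, 1 higher and 3 lower, against 35.4% of all genes.

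Of 9 amino acid transporter genes of the response, 0 were higher and 2 lower (median -0.04), beside 8.55% and 10.3% of all genes. Slc38a2 (SNAT2), a transporter of small neutral amino acids and a classical target of amino acid shortage, had 191, 199.9 and 174 CPM in CKO nerves, against 362, 368 and 378 CPM in WT nerves. It was lower in every CKO library (log2 fold change -0.97, edgeR adjusted p = 0.00142), opposite in direction to Asns. Slc3a2, the heavy chain of several exchangers, had 74.3, 59.4 and 65.2 CPM in CKO nerves, against 108, 99.1 and 105 CPM in WT nerves (log2 fold change -0.64, edgeR adjusted p = 0.00757). Slc1a5 was not called (0.26, edgeR adjusted p = 0.162). The calls of Slc38a2 and Slc3a2 held whichever library was left out. Without CKO replicate 2 Slc1a5 was called too (0.32), which gave 1 higher and 2 lower of 9, beside 17.8% and 17.6% of all genes, and the median was 0.03.

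Of 23 tested other targets and parts of the integrated stress response, 1 was higher and 1 lower (median 0.22), beside 8.55% and 10.3% of all genes. Gpt2, mitochondrial alanine transaminase, had 36.2, 51.5 and 44.9 CPM in CKO nerves, against 25.6, 27.2 and 28.5 CPM in WT nerves (log2 fold change 0.70, edgeR adjusted p = 0.0154). Sesn3, a relative of Sesn2, had 105, 91.1 and 94.0 CPM in CKO nerves, against 145, 126 and 134 CPM in WT nerves (log2 fold change -0.48, edgeR adjusted p = 0.0172). Eif4ebp1, an inhibitor of translation initiation, had 86.1, 156 and 90.7 CPM in CKO nerves, against 66.9, 67.9 and 72.7 CPM in WT nerves, and was not called (0.68, edgeR adjusted p = 0.0901). Its highest value was in CKO replicate 2, and without that library it was called with a log2 fold change of 0.35. The list then had 4 higher and 2 lower (26.1% called, against 35.4% of all genes). Its median was 0.14 and 13 of 23 values lay above 0, against 18 of 23 with all libraries. The calls of Gpt2 and Sesn3 were lost without CKO replicate 3 and without each WT library (highest edgeR adjusted p 0.0820 and 0.0773).

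Of 25 other degradation and translocon genes 0 were higher and 7 lower (median -0.13): Selenos, Spcs2, Ssr1, Ssr3, Os9, Ufd1 and Srprb. Selenos, a membrane factor of retrotranslocation, had 81.9, 72.6 and 79.6 CPM in CKO nerves, against 113, 129 and 128 CPM in WT nerves (log2 fold change -0.66, edgeR adjusted p = 0.00510). Spcs2 of the signal peptidase (-0.49, edgeR adjusted p = 0.00937) and Ssr1 of the translocon-associated complex (-0.56, edgeR adjusted p = 0.0125) were lower as well. The 7 of 25 that were lower stand beside 10.3% of all genes, and without CKO replicate 2 the list had 11 lower and 2 higher, beside 17.6% and 17.8% of all genes, and a median of -0.11. The call of Selenos held whichever library was left out, and those of the others were lost in 2 to 5 of the 6 fits, among them those without WT replicate 2 or 3 (highest edgeR adjusted p 0.173, Ufd1).

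Of 14 other ER chaperones 0 were higher and 1 lower (median -0.02), beside 8.55% and 10.3% of all genes. That was Canx, the lectin chaperone calnexin, at 435, 442 and 476 CPM in CKO nerves, against 607, 649 and 618 CPM in WT nerves (log2 fold change -0.47, edgeR adjusted p = 0.0165); Ero1lb (-0.42, edgeR adjusted p = 0.112) and Hyou1 (-0.30, edgeR adjusted p = 0.125) were not called. Of 10 tested other sensors and proteases 0 were higher and 1 lower (median -0.14), beside the same shares of all genes. That was Mbtps2, the site-2 protease that releases ATF6, at 32.8, 25.4 and 26.7 CPM in CKO nerves, against 41.2, 40.9 and 39.6 CPM in WT nerves (log2 fold change -0.52, edgeR adjusted p = 0.0232). Traf2, an IRE1 adaptor (0.42, edgeR adjusted p = 0.0509), and Atf6b (-0.34, edgeR adjusted p = 0.0642) were not called. The calls of Canx and Mbtps2 were lost without each WT library, that of Mbtps2 also without CKO replicate 3 (highest edgeR adjusted p 0.0877 and 0.0944). Without CKO replicate 2, 2 of 14 chaperone genes were lower and 0 higher (median -0.0024), and 2 of 10 sensor genes were higher and 2 lower (median -0.08), beside 17.8% higher and 17.6% lower of all genes. Hyou1 (-0.34), Traf2 (0.39) and Atf6b (-0.28) were called in that fit.

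Of 9 mitochondrial chaperones and proteases 0 were called by edgeR or DESeq2 (median 0.19), beside 18.8% and 21.2% of all genes. Of the same 9, 0 had an unadjusted edgeR p under 0.05 (share of all genes not computed). The log2 fold change of Dnaja3 was 0.68 (edgeR adjusted p = 0.181) and that of Trap1 0.48 (edgeR adjusted p = 0.275). Dnaja3, a mitochondrial DnaJ co-chaperone, had 29.7, 68.4 and 36.2 CPM in CKO nerves, against 28.8, 25.9 and 29.1 CPM in WT nerves. Trap1, the mitochondrial HSP90, had 55.2, 117 and 63.9 CPM in CKO nerves, against 57.9, 56.4 and 55.2 CPM in WT nerves. In both, the high value was that of CKO replicate 2, the library with 7.39% muscle counts; the part of muscle RNA in these values was not tested. The list's median log2 deviation from the WT mean was -0.11, 0.77 and -0.11 in CKO nerves, and without that library its median log2 fold change was -0.12, that of Dnaja3 0.24 and that of Trap1 0.07. Hspe1, the mitochondrial HSP10, was not called (0.19, edgeR adjusted p = 0.205).

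**Figure D5:**
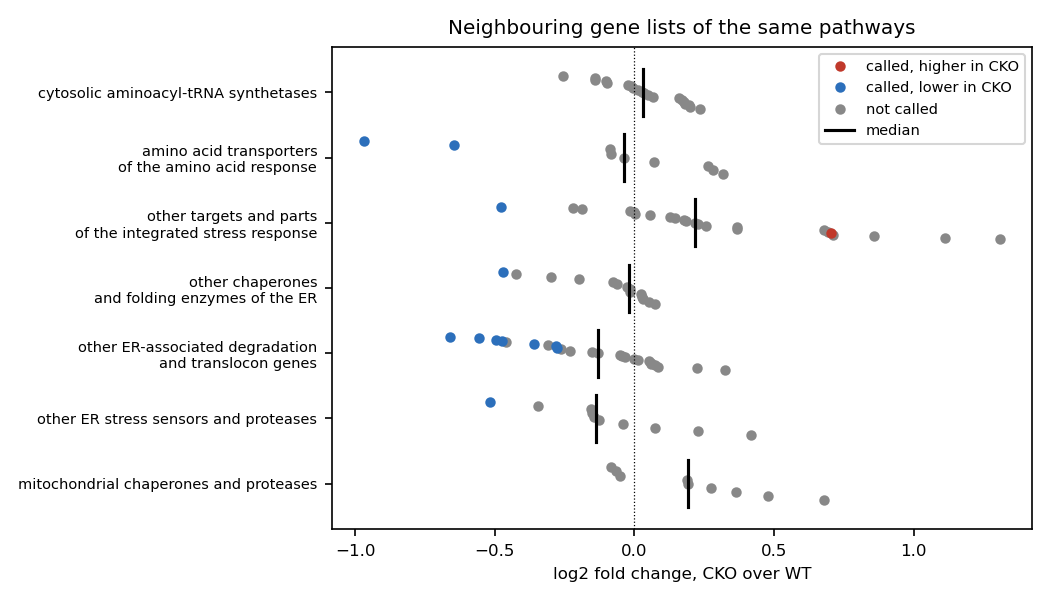
Log2 fold change, CKO over WT (horizontal axis), of each tested gene of 7 neighbouring lists (rows); black bars are list medians, red and blue points genes called higher or lower in CKO. Called points lie left of 0 except Gpt2, and the degradation and translocon list holds 7 of them.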

How the data were processed

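RNA of 3 CKO and 3 WT sciatic nerve libraries, about 150 ng each per the labels' protocols, was sequenced. The authors deposited 1 table of raw counts per gene and library, not normalised. FeatureCounts 1.6.1 counted exons of Ensembl GRCm38 release 95 at a minimum mapping quality of 20, ignoring strand, per the file headers, so antisense and near-identical genes cannot be told apart. The submitters' processing notes name Subread 2.0 and DESeq2 1.3. What settings the aligner had was not given in the sources used here. Symbols came from a reference table of gene identifiers (54723 of 54838 matched), exons from the deposited table and shared transcript words from GENCODE M21 transcripts.

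Counts were tested with edgeR 4.0.16 (R 4.3.3): filterByExpr with a minimum count of 10, TMM scaling, robust quasi-likelihood testing (4 residual degrees of freedom, 2-sided) and Benjamini-Hochberg adjustment over 18775 genes. CPM and TPM were computed here from the deposited counts and gene lengths. DESeq2 1.42.0, other filters and scalings, a replicate block, a muscle covariate and leaving out each library were alternatives. Within groups, all library pairs differed beyond counting error (chi-square over its degrees of freedom 8.98 to 345.8). All 38 members are accounted for; per-library values are given for called members, Atf4, Eif2ak3, Eif2ak4, Atf6, Ern1, Xbp1 and Hspa5, and for others chosen after their values were seen, and the 3 genes of smallest p stand for each neighbouring list. The further degradation and translocon genes were named after their values were seen. Members, lists and rules were chosen with earlier results of these data known.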

Additional observations from a re-analysis of the deposited data

How the results depend on the processing

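The number of members called was 12 with all libraries and between 1 and 19 when 1 library was left out, lowest without WT replicate 2 and highest without CKO replicate 2. Over all genes it was 3534, and between 1246 and 6823. With the replicate block 6 members and 1852 genes were called, though the labels name no pairing of same-numbered libraries. Deviations of these libraries from their group means correlated at -0.22, -0.23 and -0.08. With 3 libraries per group and CKO replicate 2 standing apart, such values cannot show whether the libraries were paired. With the summed muscle marker level as a covariate 19 members and 6677 genes were called; the causes of these shifts were not tested. The ATF4 branch median was 0.23 and, over its targets alone without the kinases and Atf4, 0.32. Across leave-one-out fits the ATF4 branch median ran from 0.17 to 0.30, that of the ATF6 and XBP1 branches from -0.06 to 0.02 and their difference from 0.17 to 0.33. Other scalings, filters and DESeq2 called 11 to 15 members. Of 493 member fold changes under alternatives, 414 kept direction and side of the threshold, 47 lost a call, 19 gained one and 13 changed sign, 0 of these in called members. The sign changes, as log2 fold changes, were Psat1 (0.101) and Ern1 (0.0221) with the covariate, Manf without the filter (-0.00244) and Pdia6 at 1 CPM (0.00058), and the rest came from leaving out 1 library. Over those fits Trib3 ran from -0.21 to 0.41, Psat1 from -0.205 to 0.0851, Xbp1 from -0.0276 to 0.0671, Manf from -0.0640 to 0.0634 and Pdia6 from -0.0684 to 0.0132; Ern1 was highest at 0.0176 and lowest at -0.225. At under 1 CPM, Chac1 was limited by depth.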
